A study of Mus musculus with 6 samples.

Results

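Heat shock proteins and their cochaperones were followed as 38 genes, chosen by symbol from the 55809 genes in the tables: the HSP70, HSP110, HSP90, chaperonin and small heat shock protein families, J-domain proteins, BAG proteins, HSP90 cochaperones and the transcription factors HSF1 and HSF2. All 38 had enough counts to be among the 16716 genes tested. The cells were mast cells from the skin of C57BL6J mouse fetuses at embryonic day 18.5, sorted as CD45+ F4/80- CD64- CD117+ ST2+ cells after 45 minutes of enzyme digestion at 37 °C, a step that both groups shared. The prenatal stress group (3 libraries) came from dams kept in drilled tubes under a strong lamp for 30 minutes, with 3 such sessions daily, and the control group (3 libraries) from dams that were left alone. The mice mated were 8 to 10 weeks old in both groups. The stress ran from day 13.5 to day 18.5 in the series' design text and from day 13 to day 18 in its treatment protocol. Each library pooled 4 mice of either sex, the labels do not tie pools to litters, and p-values therefore measure the spread between pools. Libraries held 51710555 to 57806119 gene counts after prenatal stress and 54616570 to 74735139 in controls, and the labels name 1 flow cell for all 6. All 10 mast cell markers were present in every library, with a summed level of 85048 to 102462 CPM after prenatal stress and 58717 to 70958 CPM in controls, where CPM is a gene's count scaled by the TMM-adjusted library size. The 16 macrophage markers summed to 7201, 6570 and 10580 CPM in prenatal stress replicates 1, 2 and 3. In control replicates 1, 2 and 3 they summed to 9004, 10320 and 10176 CPM, so by this sum stress replicate 3 lay with the controls. Single markers differed. Cx3cr1 was at 302, 274 and 310 CPM in the stress libraries and 395, 439 and 457 CPM in controls. It was called lower and Cd68 higher in the test below, and the other 14 did not pass (1.85% of all genes tested were called lower and 4.34% higher).

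Chaperones bind unfolded or half-folded proteins and keep them from clumping until they fold, are passed on or are degraded. HSP70 proteins do so in cycles that J-domain proteins start and that HSP110 and BAG proteins help to end, while HSP90 takes over late folding steps of kinases and steroid hormone receptors with the help of its own cochaperones. When unfolded proteins build up, HSF1 binds heat shock elements, runs of GAA and its complement TTC, in the promoters of inducible chaperone genes. Other chaperone genes are active in every cell without stress, and the mitochondrion has its own set. The members were therefore compared as 12 inducible, 16 constitutive cytosolic and 5 mitochondrial genes, 2 of the endoplasmic reticulum, 2 transcription factors, and Hspb11, which despite its name encodes a protein of intraflagellar transport.

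Promoter sequences of genes the results turn on are shown first, with matches to the letters of heat shock elements marked. RefSeq start sites on build GRCm38.p6 gave a window of 250 bases upstream for 30 of the 38 genes. No window was used for Hspa8, Hspa9, Hspa13, Hsp90aa1, Hsp90ab1, Cryab, Hsf1 and Ptges3l. The search was for GAANNTTC and TTCNNGAA, each of which reads the same on both strands. One or both were in a window of 11 of the 30 genes, against 14.5% of the 27025 genes in the table, and in 13 of the 38 windows of these genes, against 12.8% of all 32851 windows. A match is only a description of letters. Capitals mark the matches, and each sequence runs 5′ to 3′ on the strand of its gene and ends at the base before the start site. The Hspa1b window is chr17:34959239-34959488 and the Hspa1a window chr17:34972157-34972406, both on the minus strand. The Hspb1 window is chr5:135887669-135887918 on the plus strand, and the Fkbp4 window chr6:128438657-128438906 on the minus strand.
Hspa1b: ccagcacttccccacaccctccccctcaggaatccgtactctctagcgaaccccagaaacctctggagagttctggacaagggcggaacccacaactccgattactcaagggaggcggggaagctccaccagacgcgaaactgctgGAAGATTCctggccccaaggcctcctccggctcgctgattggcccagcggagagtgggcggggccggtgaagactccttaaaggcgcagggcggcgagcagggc
Hspa1a: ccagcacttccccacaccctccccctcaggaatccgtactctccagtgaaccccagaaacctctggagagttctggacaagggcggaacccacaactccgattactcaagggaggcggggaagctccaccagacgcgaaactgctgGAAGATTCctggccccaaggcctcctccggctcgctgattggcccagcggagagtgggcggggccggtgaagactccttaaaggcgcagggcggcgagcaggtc
Hspb1: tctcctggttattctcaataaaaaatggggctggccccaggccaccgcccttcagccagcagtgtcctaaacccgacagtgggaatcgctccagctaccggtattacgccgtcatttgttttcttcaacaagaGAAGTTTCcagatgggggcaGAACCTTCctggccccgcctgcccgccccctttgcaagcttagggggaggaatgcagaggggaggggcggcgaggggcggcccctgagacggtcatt
Fkbp4: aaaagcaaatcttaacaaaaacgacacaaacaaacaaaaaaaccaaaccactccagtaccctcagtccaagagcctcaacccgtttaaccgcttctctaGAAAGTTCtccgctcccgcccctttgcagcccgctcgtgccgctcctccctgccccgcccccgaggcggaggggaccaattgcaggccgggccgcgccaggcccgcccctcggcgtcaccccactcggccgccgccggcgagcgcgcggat
The Hspa1a and Hspa1b windows were the same at 247 of 250 positions and held the same element, 104 to 97 bases before the start site. The longest open reading frames of these genes were 99.4% identical, against 74.1% between Hspa1a and Hspa8. Hspb1 had 2 separate elements, and Fkbp4 had 1. CCAAT, read on both strands, was in a window of 13 of the 30 genes, against 37.5% of all genes, and TATAAA in a window of 1, against 14.3%.

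Where one element overlapped the other by 3 letters, at least 3 units stood in a row. That was so for 3 of the 30 genes, Hspd1, Hspe1 and Dnajb6, against 0.514% of all genes. Hspd1 and Hspe1, which encode the mitochondrial chaperonin HSP60 and its lid HSP10, lie head to head, so that both windows hold the same run of 18 bases on opposite strands at chr1:55088053-55088082 (Hspd1 minus, Hspe1 plus). The stretches of 30 bases around these elements, with those of Dnajb6 (a run of 13 bases; chr5:29735844-29735873, plus) and Hsph1 (chr5:149636351-149636380, minus), show the runs side by side.
Hspd1: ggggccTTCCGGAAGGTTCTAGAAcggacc
Hspe1: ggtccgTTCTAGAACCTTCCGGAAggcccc
Dnajb6: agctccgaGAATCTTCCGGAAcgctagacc
Hsph1: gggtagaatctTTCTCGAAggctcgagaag
By class, 6 of 10 inducible genes with a window held an element, 3 of 13 constitutive cytosolic genes and 2 of 4 mitochondrial genes.

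**Figure D1:**
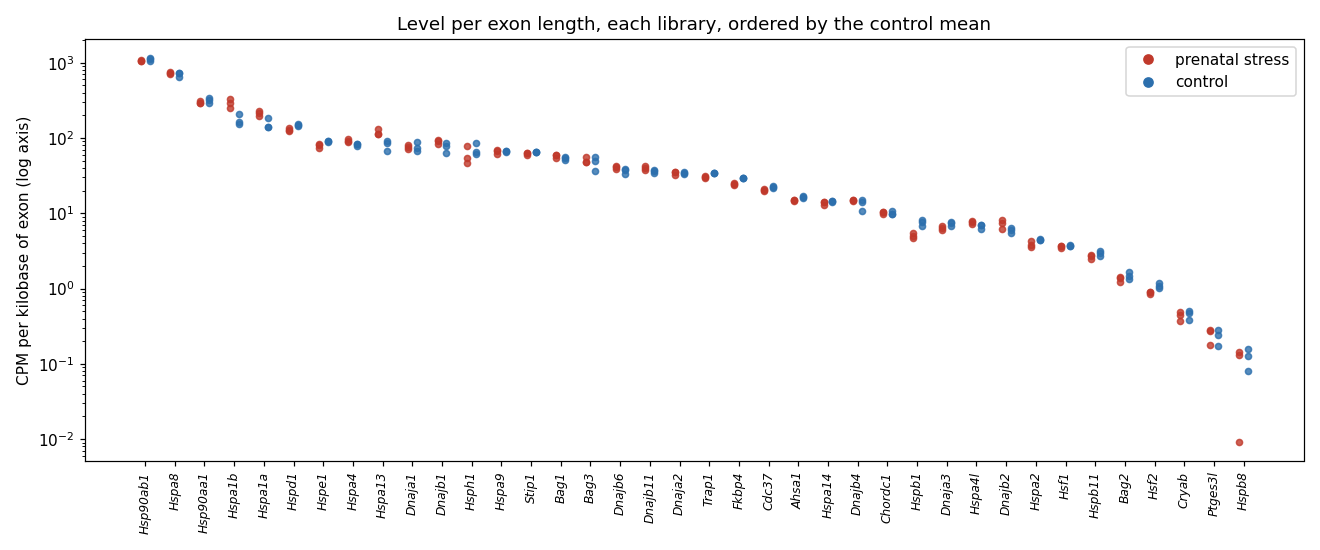
Level of each of the 38 genes in each library, as CPM per kilobase of exon on a log axis, ordered by the control mean. Each point is 1 library (red, prenatal stress; blue, control). The constitutive genes Hsp90ab1 and Hspa8 lead the order, and Hspb8 stands last.

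Per kilobase of exon the constitutive HSP90 gene Hsp90ab1 led, at a mean of 1062 CPM per kilobase after prenatal stress and 1103 in controls, followed by the constitutive HSP70 gene Hspa8 at 728 after prenatal stress and 708 in controls. The inducible HSP90 gene Hsp90aa1 was next in both groups, at 297 after prenatal stress and 316 in controls. After it stood Hspa1b, at 287 after prenatal stress and 177 in controls, and then Hspa1a, at 213 after prenatal stress and 155 in controls. By these counts the inducible HSP70 genes were thus among the most abundant members in both groups, controls included. Part of the sequence of Hspa1a, Hspa1b, Hsp90aa1 and Hspa8 also occurs in other genes, as given below, so this order is uncertain. Hspb8, Ptges3l and Cryab were at the low end, each under 1 CPM on average. Together the 38 genes took 1.39%, 1.32% and 1.33% of gene counts in prenatal stress replicates 1, 2 and 3, and 1.45%, 1.34% and 1.40% in control replicates 1, 2 and 3.

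The comparison asked how the chaperone transcripts of fetal skin mast cells differed after prenatal stress. Of the 38 genes 2 rose, Hspa1b and Hspa13, and 2 fell, Hspb1 and Fkbp4, while 34 did not pass (edgeR quasi-likelihood test, Benjamini-Hochberg adjusted p at most 0.05 over all genes tested). That is 10.5% of the members, where 6.19% of all genes tested were called. The shares were 5.26% of members called higher against a background of 4.34%, and 5.26% called lower against 1.85%. The 3 prenatal stress libraries all lay above the 3 controls for 7 members (18.4%; 16.0% of all genes tested) and all below them for 12 (31.6%; 14.5%), while 30.6% of all genes tested were apart in either direction. The median log2 fold change of the members was -0.045, against -0.0039 for all genes tested. In these bulk pools, fewer cells of a type and less RNA per cell cannot be told apart.

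**Figure D2:**
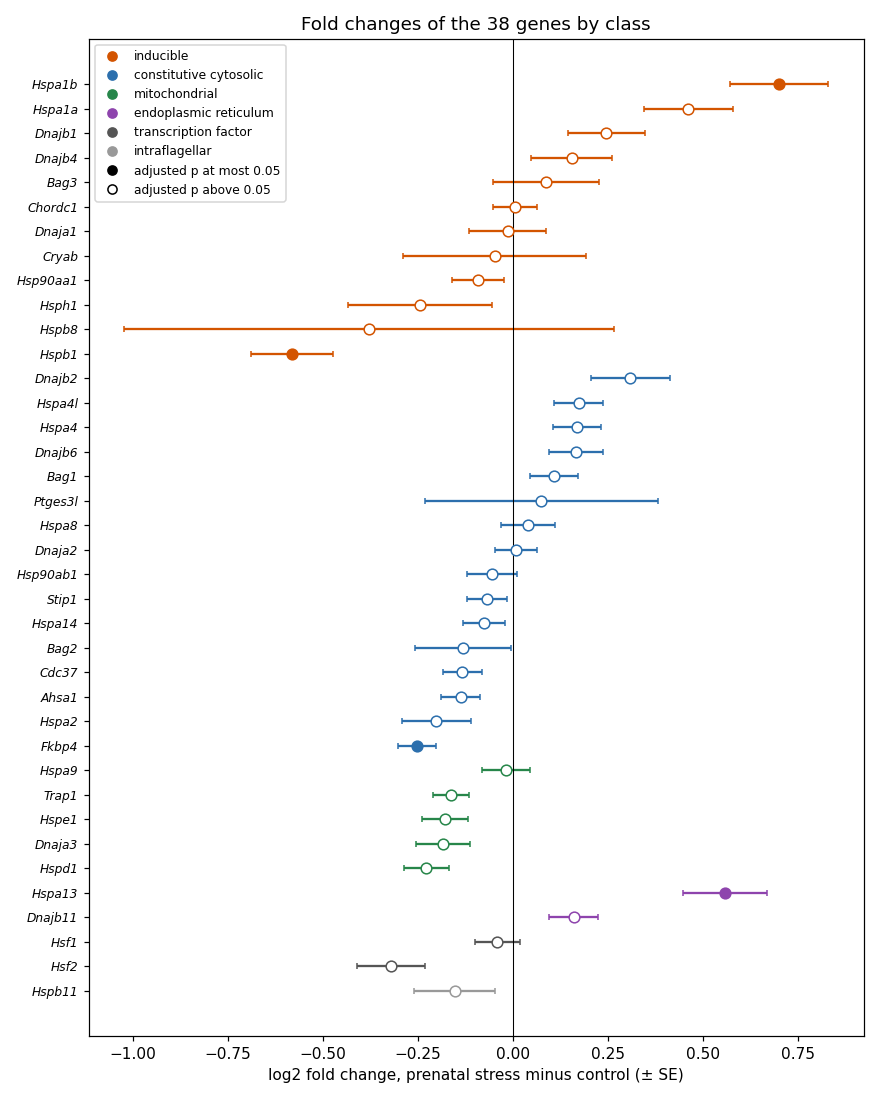
Log2 fold change of each gene (x axis, prenatal stress minus control, bars ± SE from the edgeR fit on 3 libraries per group), in colours by class and ordered within each class. Filled circles passed an adjusted p of 0.05: Hspa1b and Hspa13 above 0, Hspb1 and Fkbp4 below 0.

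Of the inducible HSP70 genes Hspa1b passed the test, while Hspa1a narrowly missed the threshold and passed in some alternative fits. Hspa1b was at 809, 910 and 694 CPM in prenatal stress replicates 1, 2 and 3, against 434, 464 and 586 CPM in control replicates 1, 2 and 3. The groups did not overlap, and stress replicate 3 and control replicate 3 were the nearest pair. The rise was 1.63-fold (log2 fold change 0.70 ± 0.13 SE, edgeR adjusted p = 0.0209). Its call ended without stress replicate 1, stress replicate 2, control replicate 1 or control replicate 2 (adjusted p 0.0627, 0.0787, 0.0651 and 0.101), and with the macrophage level as a covariate (log2 fold change 0.57, adjusted p = 0.0561).

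Hspa1a, its near copy, was at 680, 638 and 576 CPM in the prenatal stress libraries, against 412, 414 and 550 CPM in controls. These groups did not overlap either, but the gap between stress replicate 3 and control replicate 3 was small, and the adjusted p of 0.0539 missed the threshold (log2 fold change 0.46 ± 0.12). Without control replicate 3 its log2 fold change was 0.61 (adjusted p = 0.024), and without stress replicate 3 it was 0.52 (adjusted p = 0.0167). Each of the other 4 fits that left out 1 library missed the threshold. Their log2 fold changes ran from 0.39 to 0.45 and adjusted p from 0.132 to 0.207. Hspa1a also passed without a filter (edgeR adjusted p = 0.00181) and with a stricter filter (0.0484). It passed in DESeq2 (adjusted p = 0.00184) and limma-voom (0.0490) as well, and so in 6 of 14 alternative fits. It missed with the macrophage covariate (edgeR adjusted p = 0.140). Of the 75-base stretches of Hspa1b and Hspa1a transcripts, 55.8% and 61.7% occur in another annotated gene, so their counts are uncertain. In addition 19.0% of the exon length of Hspa1a is overlapped by Gm20481 on the opposite strand, and the strand setting of the counting is not given. Counted as 1 gene, a step chosen after the data were seen, Hspa1a and Hspa1b were at 1489, 1549 and 1270 CPM after prenatal stress and at 846, 878 and 1136 CPM in controls. That sum had a log2 fold change of 0.59 ± 0.12 and an adjusted p of 0.0292. The ratio of Hspa1b to Hspa1a counts was 1.19, 1.43 and 1.21 in the prenatal stress libraries, against 1.06, 1.12 and 1.07 in controls.

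The constitutive counterpart Hspa8 did not pass. It was at 3100, 3063 and 3228 CPM in the prenatal stress libraries and at 3186, 2817 and 3136 CPM in controls, with overlapping groups (log2 fold change 0.04 ± 0.07, adjusted p = 0.78). The ratio of Hspa1b to Hspa8 counts within a library was 0.261, 0.297 and 0.215 after prenatal stress and 0.136, 0.165 and 0.187 in controls, and no stress library fell within the control range. Of the stretches of Hspa8, 33.1% occur in other annotated genes. Hspa2, an HSP70 best known from the testis, averaged 10.2 CPM after prenatal stress and 11.8 CPM in controls, and Hspa14, an HSP70 of the ribosome, 55.9 CPM after prenatal stress and 58.9 CPM in controls. Neither passed.

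Hspa13, an HSP70-like ATPase of microsomes, rose. It was at 778, 904 and 767 CPM in the prenatal stress libraries, against 616, 466 and 579 CPM in controls. Every stress library was above every control, and the lowest control was replicate 2. The log2 fold change was 0.56 ± 0.11 (edgeR adjusted p = 0.0255), or 1.47-fold, and no 75-base stretch of Hspa13 occurs in another gene. The call ended without stress replicate 1 (adjusted p = 0.058), stress replicate 2 (0.0948), control replicate 2 (0.0653) or control replicate 3 (0.0696), and with the macrophage covariate (0.0621). Dnajb11, the endoplasmic reticulum J-domain protein ERdj3, was at 122, 138 and 128 CPM after prenatal stress and at 116, 110 and 120 CPM in controls (log2 fold change 0.16 ± 0.06, adjusted p = 0.167).

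Of 14 early response genes that tissue digestion is known to induce, 7 passed the test, all of them upward, where 4.34% of all genes tested were called higher. This list was added after its values were seen, so the count is a description only. The median log2 fold change of the 14 was 0.41, with 12 above 0 and 2 below. Those below 0 were the transcription factor gene Atf3 (-0.36 ± 0.13, adjusted p = 0.127) and Btg2, a gene that restrains growth (-0.19 ± 0.07, adjusted p = 0.143), and every prenatal stress library was below every control for Btg2. The 7 that passed were Fosb, Junb, Jund, Egr1, Ier2, Ier3 and Dusp1, which encode transcription factors, short-lived early proteins and a phosphatase. Their list summed to 10996, 10979 and 9708 CPM in prenatal stress replicates 1, 2 and 3, against 8239, 7386 and 8835 CPM in control replicates 1, 2 and 3. Stress replicate 3 was again the stress library nearest to the controls. The mast cell markers rose as well, 6 of 10 with none lower, and so did 5 of 6 melanocyte markers, at sums of 41.0, 72.2 and 29.5 CPM in the stress libraries and 20.4, 14.3 and 14.5 CPM in controls. The part of any of these lists in the chaperone results was not tested. The only marker level fitted as a covariate was that of the macrophage markers.

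**Figure D3:**
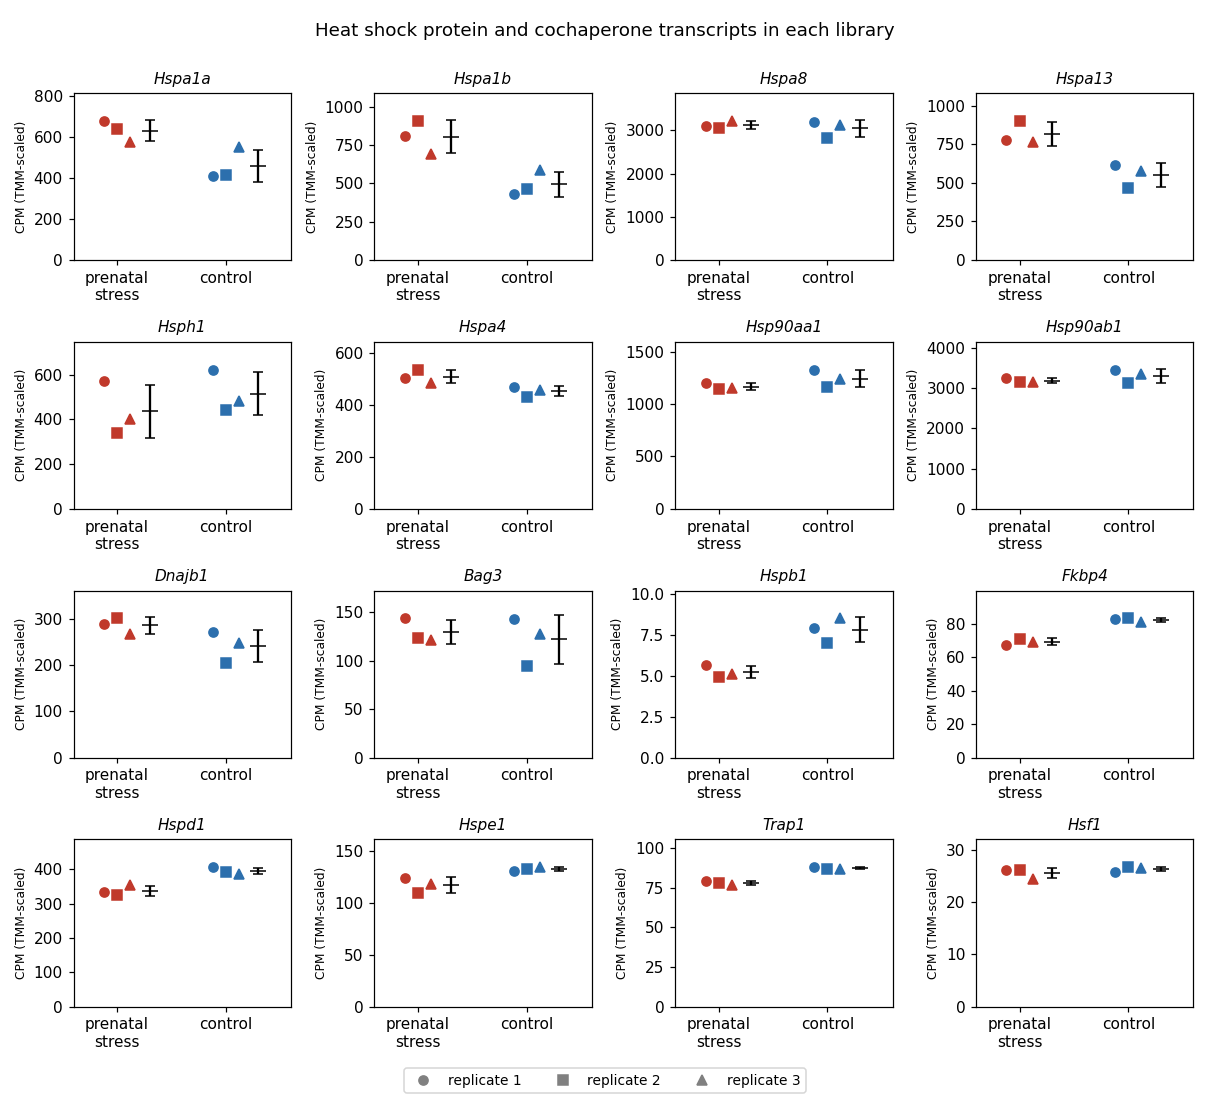
CPM (TMM-scaled, y axis from 0) of 16 genes in each library, prenatal stress left and control right, with the replicate number as the marker shape and mean ± SD (n = 3) in black. Hspa1b and Hspa13 lie higher and Hspb1 and Fkbp4 lower after prenatal stress, while Hspa8, Hsp90ab1 and Hsf1 overlap.

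The HSP110 genes, whose proteins release nucleotide from HSP70, did not pass. The inducible member Hsph1 was at 569, 338 and 400 CPM in the prenatal stress libraries and at 623, 443 and 481 CPM in controls. Replicate 1 was the highest library of each group, and the spread within groups, 27.5% of the mean after prenatal stress and 18.4% in controls, was wider than for its constitutive relatives (log2 fold change -0.24 ± 0.19, adjusted p = 0.46). Hspa4 was at 503, 535 and 485 CPM in the prenatal stress libraries, against 467, 431 and 456 CPM in controls. Its groups did not overlap, but it did not pass (log2 fold change 0.17 ± 0.06, adjusted p = 0.144), and Hspa4l, at a mean of 89.1 CPM after prenatal stress and 79.0 CPM in controls, gave 0.17 ± 0.06 (adjusted p = 0.143). The ratio of Hsph1 to Hspa4 counts was 1.13, 0.631 and 0.825 after prenatal stress and 1.33, 1.03 and 1.05 in controls.

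The cytosolic HSP90 genes did not pass. Hsp90aa1, the inducible form, was at 1204, 1144 and 1152 CPM in the prenatal stress libraries and at 1330, 1160 and 1239 CPM in controls (log2 fold change -0.09 ± 0.07, adjusted p = 0.445). Hsp90ab1, the constitutive form, was at 3257, 3138 and 3159 CPM after prenatal stress and at 3460, 3119 and 3347 CPM in controls (-0.06 ± 0.07, adjusted p = 0.652). The ratio of the inducible to the constitutive form was narrow, 0.370, 0.364 and 0.365 in the prenatal stress libraries and 0.384, 0.372 and 0.370 in controls. Of Hsp90aa1 stretches, 42.8% occur in another annotated gene, most often in Gm12346, so its count is uncertain.

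**Figure D4:**
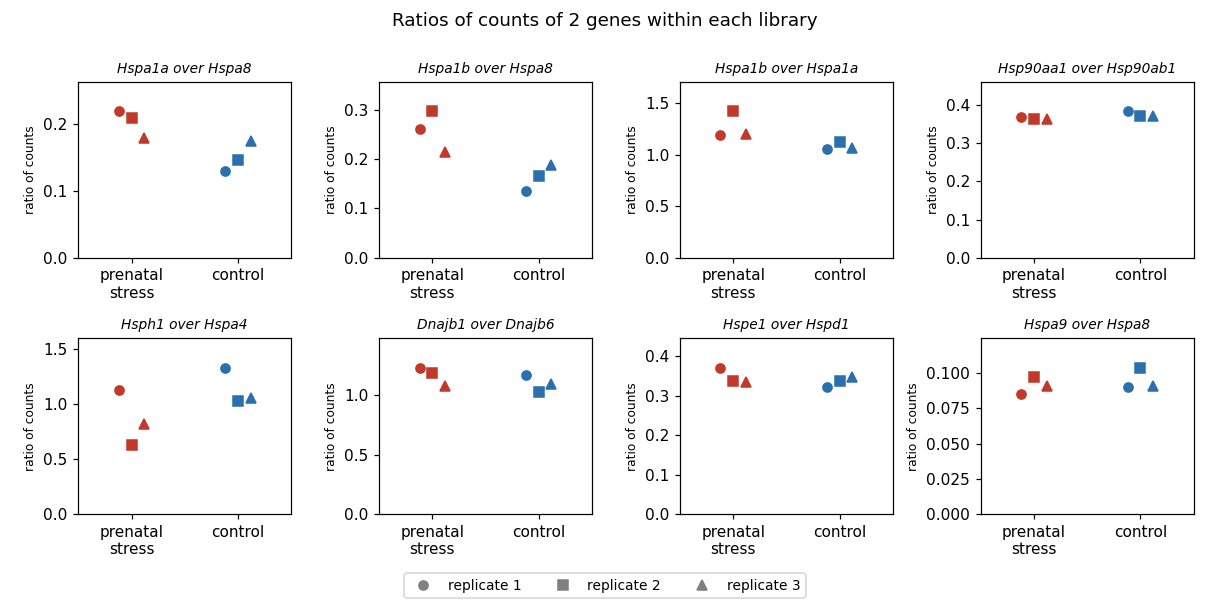
Ratio of the counts of 2 genes within each library (y axis from 0), prenatal stress left and control right, with the replicate number as the marker shape. Hspa1a and Hspa1b are higher against Hspa8 in all 3 stress libraries, while Hsp90aa1 against Hsp90ab1 stays between 0.364 and 0.384 in all 6.

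Among the HSP90 cochaperones Fkbp4 fell. Fkbp4 encodes FKBP52, an immunophilin that helps HSP90 to keep steroid hormone receptors such as the glucocorticoid receptor ready to bind hormone. It was at 67.2, 71.3 and 69.4 CPM in the prenatal stress libraries, against 83.0, 83.3 and 81.2 CPM in controls. Replicates were close in both groups and the groups lay well apart, though the fall was small (log2 fold change -0.25 ± 0.05, edgeR adjusted p = 0.0272). The call held without stress replicate 3 (adjusted p = 0.0149) and ended in each of the other 5 fits that left out 1 library (adjusted p from 0.0608 to 0.105). With the macrophage covariate Fkbp4 was at -0.26 (adjusted p = 0.051).

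Other HSP90 cochaperones leaned the same way without passing. Ahsa1, which speeds up the ATPase of HSP90, averaged 65.3 ± 1.34 CPM after prenatal stress and 71.8 ± 1.86 CPM in controls (SD, n = 3 each; edgeR adjusted p = 0.138). Cdc37, which hands kinases to HSP90 and led this family in CPM, was at 170.2, 163 and 167 CPM after prenatal stress and at 182, 179 and 188 CPM in controls (log2 fold change -0.13 ± 0.05, adjusted p = 0.157). Stip1, which links HSP70 to HSP90, averaged 130.0 ± 4.85 CPM after prenatal stress and 136.3 ± 0.444 CPM in controls (SD, n = 3 each; edgeR adjusted p = 0.453). For all of these every prenatal stress library was below every control, as was so for 14.5% of all genes tested. Chordc1, an HSP90 partner that HSF1 induces, averaged 76.2 CPM after prenatal stress and 75.9 CPM in controls (adjusted p = 0.964), and Ptges3l, a relative of the cochaperone p23, averaged 0.513 CPM after prenatal stress and 0.491 CPM in controls. Of 12 further HSP90 cochaperones outside the 38 genes none passed in the edgeR test (1 had an unadjusted p under 0.05) and their median log2 fold change was 0.02. Among them Fkbp5, which encodes the FKBP52 relative FKBP51 and is a known glucocorticoid target, was at 70.8, 67.8 and 77.5 CPM after prenatal stress and at 72.4, 63.2 and 65.7 CPM in controls (adjusted p = 0.417). The ratio of Fkbp5 to Fkbp4 counts was 1.05, 0.951 and 1.12 in the prenatal stress libraries, against 0.873, 0.758 and 0.809 in controls.

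The small heat shock proteins, which hold unfolded proteins without using ATP, were scarce. Hspb1, which encodes HSP25, fell. It was at 5.65, 4.90 and 5.11 CPM in the prenatal stress libraries, against 7.92, 7.01 and 8.49 CPM in controls, with no overlap (log2 fold change -0.58 ± 0.11, edgeR adjusted p = 0.0212). Hspb1 is an inducible gene and went opposite to Hspa1b. Its call ended without stress replicate 2 (adjusted p = 0.0844), control replicate 1 (0.0658) or control replicate 3 (0.0765), and held with the macrophage covariate. Of its stretches 46.4% occur in another annotated gene, most often the pseudogene Hsp25-ps1, so its count is uncertain.

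Cryab, which encodes alphaB-crystallin and is abundant in lens and muscle, was at 0.555, 0.724 and 0.666 CPM in the prenatal stress libraries and at 0.742, 0.561 and 0.704 CPM in controls, with overlap. Hspb8, the partner of BAG3, was at 13, 15 and 1 counts in prenatal stress replicates 1, 2 and 3 and at 19, 18 and 9 counts in control replicates 1, 2 and 3. At such counts no difference of moderate size was detectable, and the SE of its log2 fold change was 0.64. Hspb11 averaged 5.49 CPM after prenatal stress and 6.11 CPM in controls (adjusted p = 0.406).

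None of the 8 J-domain genes, whose proteins deliver clients to HSP70, passed in the edgeR test, while 5 had an unadjusted p under 0.05, as did 4150 of all 16716 genes tested. Dnajb1, the inducible partner of HSP70, was at 290, 301 and 266 CPM in the prenatal stress libraries and at 271, 204 and 248 CPM in controls. The groups overlapped only in that stress replicate 3 lay just below control replicate 1 (log2 fold change 0.25 ± 0.10, adjusted p = 0.178). Dnaja1, the most abundant of them in CPM, was at 703, 619 and 645 CPM after prenatal stress and at 764, 581 and 642 CPM in controls (adjusted p = 0.95). Dnajb6, which keeps aggregation-prone proteins soluble, averaged 246 CPM after prenatal stress and 219 CPM in controls (adjusted p = 0.191), and Dnajb2, another J-domain protein of that kind, 31.0 CPM after prenatal stress and 25.0 CPM in controls (log2 fold change 0.31 ± 0.10, adjusted p = 0.111). Dnajb4 averaged 129.8 CPM after prenatal stress and 116.5 CPM in controls, and Dnaja2 averaged 101.7 CPM after prenatal stress and 101.1 CPM in controls.

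The BAG proteins, which act on HSP70 at the end of its cycle, did not pass. Bag3, an inducible gene, was at 144, 124 and 121 CPM in the prenatal stress libraries and at 143, 94.3 and 128 CPM in controls, so replicate 1 was again high in both groups (log2 fold change 0.09 ± 0.14, adjusted p = 0.748). Bag1 averaged 78.0 CPM after prenatal stress and 72.4 CPM in controls (adjusted p = 0.325) and Bag2 averaged 4.11 CPM after prenatal stress and 4.49 CPM in controls (adjusted p = 0.563).

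Hsf1, the regulator of the heat shock response, was at 26.1, 26.2 and 24.5 CPM in the prenatal stress libraries and at 25.8, 26.7 and 26.5 CPM in controls. These values were flat (log2 fold change -0.04 ± 0.06, adjusted p = 0.717). Transcript levels do not report on HSF1 activity, which is set mainly on the protein. Hsf2, its relative, was at 8.03, 8.65 and 8.64 CPM after prenatal stress and at 10.5, 11.4 and 9.69 CPM in controls, apart but short of the threshold (log2 fold change -0.32 ± 0.09, adjusted p = 0.0685).

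All 5 mitochondrial chaperone genes had a negative log2 fold change, from -0.23 to -0.02, and none passed in the edgeR test. At an unadjusted p under 0.05 there were 4 of these 5, against 4150 of all 16716 genes tested, and 49.2% of all genes had a positive log2 fold change. Hspd1, which encodes HSP60, was at 335, 324 and 354 CPM in the prenatal stress libraries, against 406, 393 and 387 CPM in controls. The groups lay apart (log2 fold change -0.23 ± 0.06, adjusted p = 0.0554), and Hspd1 passed without stress replicate 3 (-0.27, adjusted p = 0.0195). It missed the threshold in the other 5 fits that left out 1 library (adjusted p from 0.0940 to 0.180) and with the macrophage covariate (0.188). Hspd1 also passed with library totals alone, without a filter, with a stricter filter and in DESeq2, and so in 5 of 14 alternative fits. With library totals alone Trap1, Hspe1 and Dnaja3 were called lower too. In that fit 1532 of all genes were lower and the median of all genes was -0.12. Hspe1, which shares the element printed above with Hspd1, was at 124, 110 and 118 CPM after prenatal stress and at 131, 133 and 135 CPM in controls (-0.18 ± 0.06, adjusted p = 0.112). The ratio of Hspe1 to Hspd1 counts was 0.371, 0.338 and 0.334 in the stress libraries and 0.322, 0.338 and 0.348 in controls, with overlap. Of their stretches, 31.0% for Hspd1 and 14.6% for Hspe1 occur in other annotated genes.

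Trap1, the mitochondrial HSP90, was at 79.4, 78.1 and 76.4 CPM in the prenatal stress libraries, against 87.9, 87.1 and 86.9 CPM in controls. Its replicates were very close and the groups apart (-0.16 ± 0.05, adjusted p = 0.0819). Dnaja3, a mitochondrial J-domain protein, averaged 25.1 ± 1.41 CPM after prenatal stress and 28.5 ± 1.64 CPM in controls (SD, n = 3 each; edgeR adjusted p = 0.152). Hspa9, the mitochondrial HSP70 mortalin, was at 264, 297 and 293 CPM in the stress libraries and at 287, 292 and 285 CPM in controls, and these overlapped (-0.02 ± 0.06, adjusted p = 0.889). Of 9 further mitochondrial cochaperone and protease genes Lonp1 alone passed, and 4 had an unadjusted p under 0.05. The groups did not overlap for 3 of the 9 upward (16.0% of all genes tested) and for 4 downward (14.5% of all genes tested). Upward were Dnajc19 and Hscb, both J-domain proteins, at log2 fold changes of 0.30 (adjusted p = 0.115) and 0.21 (0.179). Clpx, a subunit of a matrix protease, was also upward, at 0.08 (0.430). Downward were Lonp1, Grpel1 at -0.15 (adjusted p = 0.258), Grpel2 at -0.18 (0.186) and Clpp at -0.15 (0.280). The median log2 fold change of the 9 was -0.15, with 3 above 0 and 6 below. Lonp1, which encodes the matrix protease LON, fell to 57.2, 56.7 and 57.9 CPM after prenatal stress, against 68.6, 73.6 and 67.7 CPM in controls (log2 fold change -0.29 ± 0.05, adjusted p = 0.0214).

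**Figure D5:**
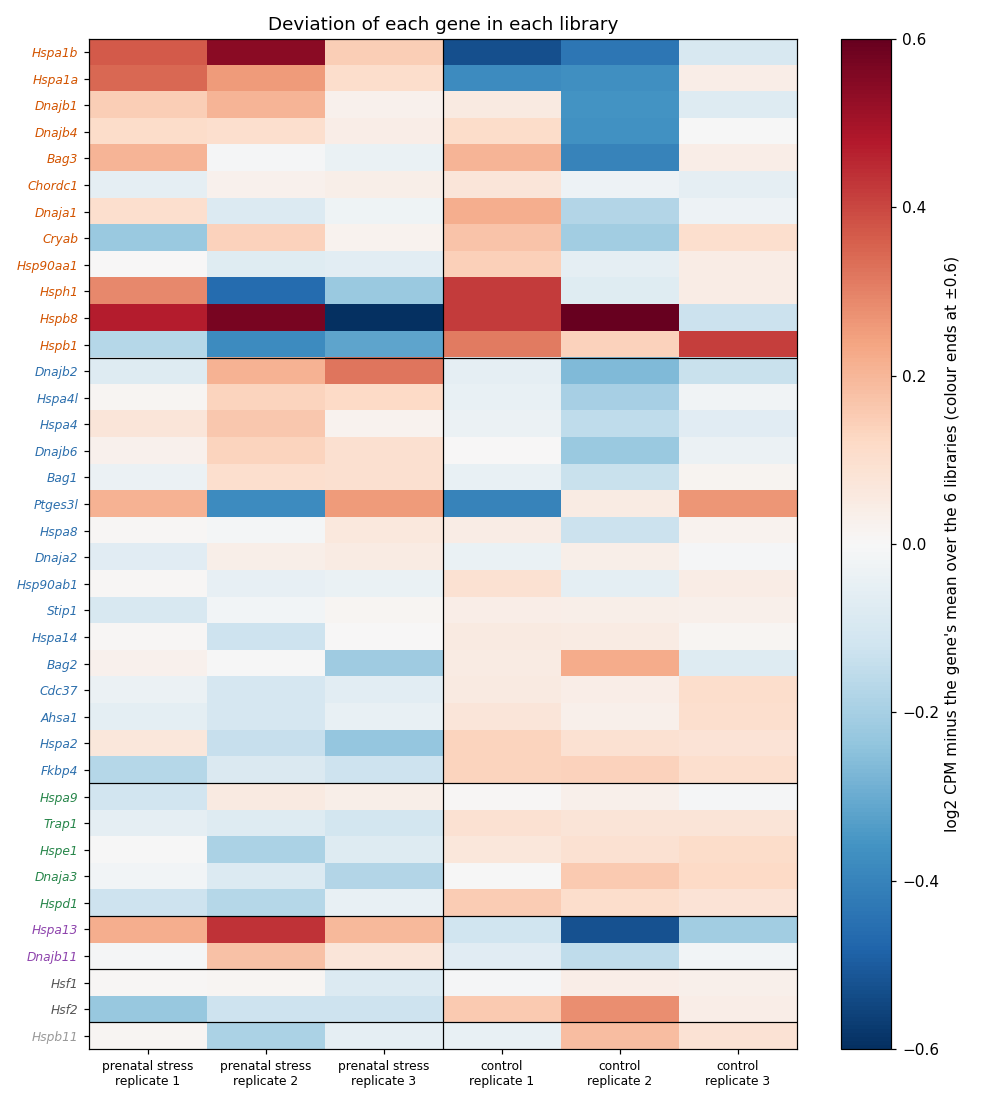
Log2 CPM of each gene in each library minus the mean of that gene over the 6 libraries (colour; ends at ±0.6), rows by class as in the plot of fold changes and columns with prenatal stress left. Mitochondrial genes other than Hspa9 are lower in every stress column than in every control column, as was so for 14.5% of all genes tested. Several inducible genes are high in replicate 1 of both groups and low in control replicate 2.

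The classes are set side by side here as a description. The median log2 fold change was -0.0041 for the 12 inducible genes, -0.023 for the 16 constitutive cytosolic genes and -0.18 for the 5 mitochondrial genes, against -0.0039 for all genes tested. The inducible genes ranged from -0.58 for Hspb1 to 0.70 for Hspa1b, with 6 above 0 and 6 below. The constitutive cytosolic genes ranged from -0.25 for Fkbp4 to 0.31 for Dnajb2, with 8 above 0 and 8 below. Calls were 1 higher and 1 lower among the inducible genes, 0 and 1 among the constitutive cytosolic genes, and none among the mitochondrial ones. Of all genes tested 4.34% were called higher and 1.85% lower, so counts this small in classes of this size do not set the classes apart. For the spread, each log2 level was taken as a deviation from the gene's mean over the 6 libraries, and the class median was taken in each library. The SD of these medians within groups, pooled over both groups, was 0.13 for the inducible genes. It was 0.013 for both the constitutive cytosolic and the mitochondrial genes. Control replicate 1 was the highest library for 5 of the 12 inducible genes, and control replicate 2 the lowest for 4. Scaling by library totals alone moved the median of all genes to -0.12, that of the inducible genes to -0.12, that of the constitutive cytosolic genes to -0.14 and that of the mitochondrial genes to -0.29.

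Other parts of the folding machinery held few called genes. Of 8 subunits of the CCT chaperonin, which folds actin and tubulin, none passed in the edgeR test, none had an unadjusted p under 0.05, and the median log2 fold change was -0.04. Of 6 prefoldin genes none passed (2 had an unadjusted p under 0.05), and of 15 further HSP70 cochaperones none passed (1 had an unadjusted p under 0.05). Of 15 other genes tied to HSF1, 13 were tested. Gadd45b, a gene of the DNA damage and stress response, rose to 169, 141 and 148 CPM in the prenatal stress libraries, against 90.03, 106 and 124 CPM in controls (log2 fold change 0.52 ± 0.11, adjusted p = 0.0366). Mrpl18, which encodes a mitochondrial ribosomal protein, fell to 34.2, 34.1 and 36.7 CPM after prenatal stress, against 41.1, 42.4 and 40.8 CPM in controls (-0.24 ± 0.06, adjusted p = 0.0429). Over all 65 of these further genes, 1 rose and 2 fell of the 63 tested. That is 4.76%, where 6.19% of all genes tested were called. The groups did not overlap for 7 of the 63 upward (11.1%, against 16.0% of all genes tested). They lay apart downward for 12 (19%, against 14.5%).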

How the data were processed

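Per the submitters' processing notes, reads were handled with FastQC, STAR 2.4 and HTSeq 0.9.1. The notes name GRCm39 and mm10 without saying which was used, and the strand setting is not given in the sources used here. The authors deposited a raw count per gene for each of 6 libraries, with 55809 gene rows. The 5 rows that name no gene were left out (reads in no annotated feature were 7.83% to 9.78% of all, and 79.7% to 81.4% were assigned to genes). The members and gene lists were chosen with earlier results of these data known.

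Genes were kept by filterByExpr with a minimum count of 10, scaled by TMM and tested with the quasi-likelihood test of edgeR 4.0.16 (R 4.3.3), prenatal stress minus control, with Benjamini-Hochberg adjustment over the 16716 genes tested and a threshold of 0.05. Every adjusted p in the text is from that test unless another tool is named. The procedure was tested on simulated data. Limma 3.58.1 and DESeq2 1.42.0 gave alternatives, as did 1 fit with the mean log2 macrophage marker level as a covariate. Values in every library are given for the members that passed, for the member with the highest mean CPM of each family and for a list of well-known members, and the called genes of each further list are named. Fkbp5, the early response genes and library values of other members were added after their values were seen. The chi-square per degree of freedom between replicates of 1 group was at least 9.81, so these libraries differed by more than counting noise. That value cannot show whether the pools were independent. Exon lengths, shared 75-base stretches and overlaps come from GENCODE annotation, and promoter windows from RefSeq on GRCm38.p6, both handled with Python 3.11.15.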

Additional observations from a re-analysis of the deposited data

How the results depend on the processing

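With 3 pools a group, the 4 calls among the members depend on single libraries and on the model. Against 2 members higher and 2 lower (725 and 310 of all genes), fits that left out 1 library gave 0 to 3 higher and 0 to 3 lower (168 to 1330 and 23 to 1317 of all genes). Leaving out any of the 6 libraries moved the number of genes called higher by over 1.5 times. The fewest higher calls over all genes came without prenatal stress replicate 2, which left no member called (9 had an unadjusted p under 0.05), and the most without prenatal stress replicate 3. In those fits the inducible median ran from -0.085 without control replicate 2 to 0.074 without control replicate 1, against -0.0041 with all libraries, the constitutive cytosolic median ran from -0.052 to -0.020 and the mitochondrial median from -0.23 to -0.15. Scaling by library totals gave 9 members lower (1532 of all genes), a constitutive cytosolic median of -0.14 and a mitochondrial median of -0.29, and 26.5% of its calls were higher, against 70.0% with TMM. Without a filter 4 members were higher (1123 genes higher and 810 lower), and DESeq2 gave 4 lower (1199 higher and 677 lower). The stricter filter gave a constitutive cytosolic median of -0.061. The macrophage covariate gave 0 members higher and 1 lower (421 and 156 genes) and a constitutive cytosolic median of -0.0025. The cause of these shifts was not tested. Deviations of same-numbered libraries from their group means had correlations of 0.095, -0.019 and 0.068. Other pairs across the groups ran from -0.21 to 0.14. With 3 libraries a group these values cannot decide whether same-numbered libraries were handled together. A fit with the replicate block gave 1 member higher and 1 lower (469 and 153 genes), with Hspa13 at an adjusted p of 0.0545 and Fkbp4 at 0.0650. None of the 4 called members changed sign in any alternative. Members under 1 CPM are limited by counts.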
